A study of Sus scrofa with 10 samples.

Results

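PAX3, PAX7, EN1, EN2, IRX2, IRX3, IRX5, BARHL2, TFAP2B and DBX1 encode transcription factors of the embryonic midbrain and of regions next to it. They were taken by symbol, and all 10 were found among the 22452 genes of the count matrices. The matrices hold 28229 cells or nuclei from pig medial entorhinal cortex (MEC), the part of the temporal cortex that contains grid cells and stellate cells, in 10 droplet libraries. Whole cells were dissociated from fetuses at embryonic day 50 (E50, 1 library of 3 pooled brains), E60 (3 libraries of 1, 1 and 2 pooled brains) and E70 (3 libraries of 2, 1 and 1 pooled brains) and from 1 adult brain (1 library). Nuclei came from 1 brain at E70 and 1 adult brain, with 1 library each. Stages and pool sizes are those of the labels: the study's text also describes the oldest animals as postnatal, and its library list gives other pool sizes for E70 libraries 1 and 3. The labels give no treatment and no genetic change for any group. Only E60 and E70 whole cells had more than 1 library, so only these stages were tested, and p-values measure the spread between those libraries.

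The libraries held between 493 and 8171 cells, and between 2336865 and 55755512 unique molecular identifiers (UMIs, each a counted RNA molecule). The median depth ran from 690 UMIs in the adult nuclei to 9403 UMIs in E70 library 2. The labelled tissue was checked with 16 genes of the telencephalon, the forebrain division that includes all cortex. In astroglia-like cells this list summed to 365 CPM (UMIs of the list per 1000000 UMIs of the same cells) in the E50 library, 510 CPM in E60 library 3 and 257 to 420 CPM in the 3 E70 whole-cell libraries. It summed to 21.8 CPM in E60 library 1 and 13.2 CPM in E60 library 2. Both of these E60 libraries therefore stood apart from the other fetal libraries and lacked most of the cortical transcripts that their label implies: in their neuron-like cells the list summed to 46.8 and 54.0 CPM, against 861 CPM in E60 library 3. Of all barcodes, 449 occurred in more than 1 library, at most 57 in any pair.

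The midbrain forms between the forebrain and the hindbrain, and its dorsal part, the tectum, is laid out by transcription factors that divide the neural tube into territories. PAX3 and PAX7 are paired-box factors of dorsal progenitors. EN1 and EN2 are engrailed factors induced near the isthmus, the organizer at the midbrain and hindbrain border. IRX2, IRX3 and IRX5 belong to the Iroquois family and mark territories behind the anterior forebrain. DBX1 is a homeobox gene of intermediate progenitor domains, whereas BARHL2 and TFAP2B are carried mainly by young neurons. Several of these genes are also used outside the midbrain, in the spinal cord, cerebellum, neural crest or retina, and none is known as a defining gene of the entorhinal cortex.

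On the Sscrofa11.1 build, RefSeq places PAX3 at chr15:124093803-124193041 on the minus strand and PAX7 at chr6:77160827-77268626 on the plus strand. Both genes span long introns, and reads in introns were counted. DBX1 lies at chr2:39229392-39234304 (plus). The engrailed genes lie at chr15:24402605-24408377 (EN1, minus) and chr18:2781977-2788441 (EN2, minus). IRX5 (chr6:30511263-30515015, minus) and IRX3 (chr6:31044919-31049067, plus) belong to one Iroquois cluster, and IRX2 lies apart at chr16:78305869-78322776 (plus). BARHL2 (chr4:126030373-126035662, plus) and TFAP2B (chr7:44745653-44774563, plus) complete the set.

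The 250 bases before the first RefSeq transcript start are printed for PAX3, PAX7 and DBX1, the members known from dorsal and intermediate progenitors, read 5′ to 3′ in the direction of the gene. Capitals mark the letters TAATCC, a short homeodomain core, and CCAAT, a general promoter element added after the sequences had been seen, each on either strand (GGATTA and ATTGG). The windows are chr15:124193042-124193291 for PAX3, chr6:77160577-77160826 for PAX7 and chr2:39229142-39229391 for DBX1.
PAX3: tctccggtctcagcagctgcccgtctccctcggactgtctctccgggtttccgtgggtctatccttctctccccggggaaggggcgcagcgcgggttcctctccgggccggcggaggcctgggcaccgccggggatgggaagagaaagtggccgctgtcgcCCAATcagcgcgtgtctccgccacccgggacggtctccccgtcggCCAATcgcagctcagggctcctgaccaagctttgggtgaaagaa
PAX7: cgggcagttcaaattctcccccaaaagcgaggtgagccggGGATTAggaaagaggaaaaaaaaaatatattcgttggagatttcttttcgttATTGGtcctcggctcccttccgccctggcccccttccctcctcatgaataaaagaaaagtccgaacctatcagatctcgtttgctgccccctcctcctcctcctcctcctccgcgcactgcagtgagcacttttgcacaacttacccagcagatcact
DBX1: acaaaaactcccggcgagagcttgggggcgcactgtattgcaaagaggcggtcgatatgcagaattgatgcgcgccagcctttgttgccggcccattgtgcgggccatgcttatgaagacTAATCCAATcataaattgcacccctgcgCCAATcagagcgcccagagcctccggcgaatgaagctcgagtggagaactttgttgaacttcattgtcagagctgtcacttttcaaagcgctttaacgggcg
The PAX3 window was 68.0% G or C, the PAX7 window 51.2% and the DBX1 window 53.2%. TAATCC occurred 130 bases upstream of the DBX1 start, where it overlaps a CCAAT as TAATCCAAT, and 210 bases upstream of the PAX7 start. Among the 10 members 3 held TAATCC (PAX7, EN1 and DBX1), against 5.38% of 19531 pig promoters of the same length, and 6 held CCAAT, against 31.9%. TAATTA, another homeodomain core, was in none of the 10 windows and in 3.71% of all promoters. These matches describe letters in the windows, not bound sites.

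The 10 genes were concentrated in the E50 library and in E60 libraries 1 and 2. These 3 libraries held 95.01% of the 4011 PAX3 UMIs, 98.9% of the 3368 EN2 UMIs, 99.5% of the 1030 IRX2 UMIs and 99.8% of the 1299 DBX1 UMIs. They also held 96.01% of the 676 IRX3 UMIs, 96.5% of the 2207 TFAP2B UMIs and 83.8% of the 228 BARHL2 UMIs. PAX7 was the exception among the well-detected members, with 71.7% of its 2849 UMIs there. EN1 gave 13 UMIs and IRX5 31 UMIs in all libraries, too few to describe by cell class. Cells were clustered on variable genes from which the members and all marker genes had been kept out, and clusters were named from marker lists, giving 5101 astroglia-like, 915 progenitor-like and 9270 neuron-like cells. Differences between these classes are descriptions of the same clustered cells and carry no test. Intervals are exact 95% intervals (Poisson for CPM, Clopper-Pearson for shares of cells) and cover counting error only. They leave out the spread between libraries and, for CPM, the gathering of UMIs in a few cells.

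**Figure D1:**
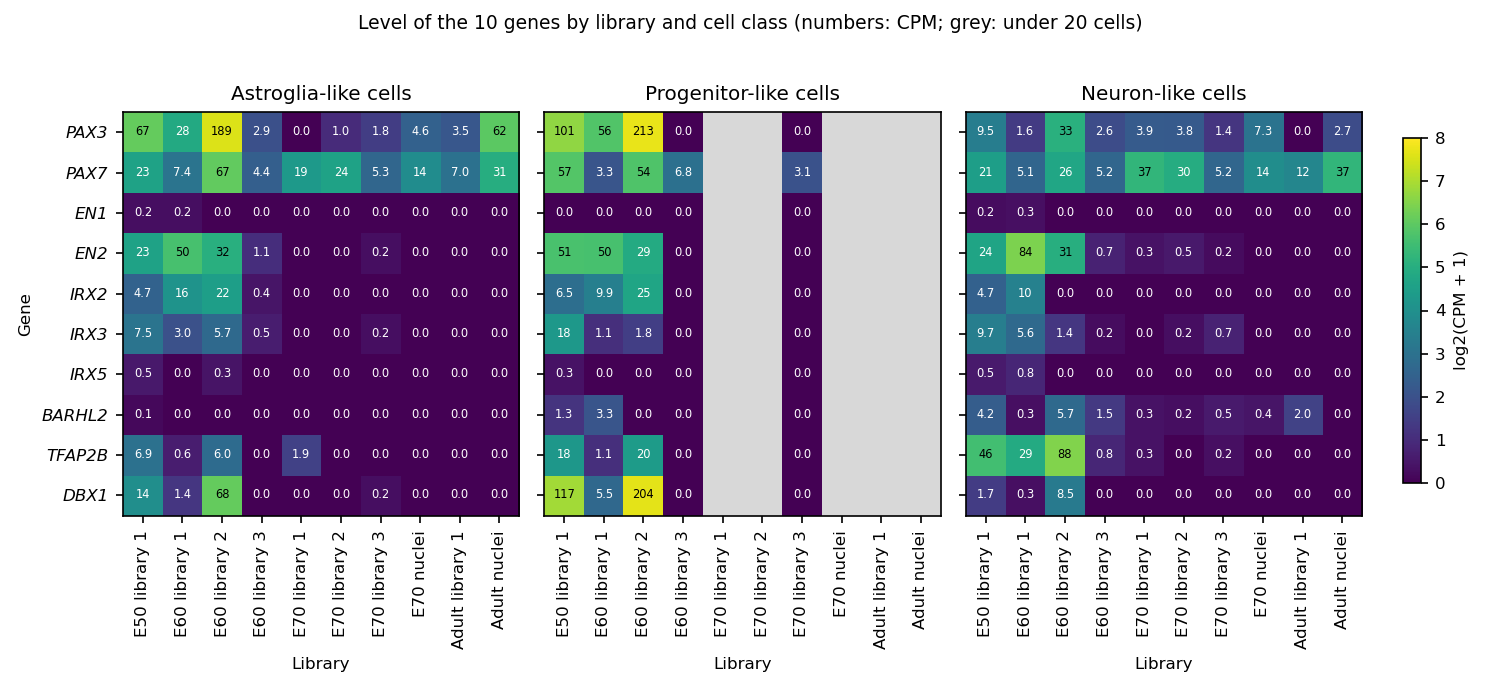
Heat maps of log2(CPM + 1) for each of the 10 genes (rows) in each library (columns) within astroglia-like, progenitor-like and neuron-like cells. Numbers in the tiles are CPM and grey tiles had under 20 cells. The signal lies in the first 3 columns (E50 library 1 and E60 libraries 1 and 2), except for PAX7, which is above 0 in every tile with enough cells.

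PAX3, a paired-box factor of dorsal neural progenitors, was measured mainly in glia and progenitors. In astroglia-like cells it reached 67.4 CPM in the E50 library, 28.2 CPM in E60 library 1 and 189 CPM in E60 library 2. It was at 2.90 CPM in E60 library 3, at 0, 0.98 and 1.76 CPM in E70 libraries 1, 2 and 3, and at 4.598 CPM (1 UMI) in the E70 nuclei. The adult whole cells gave 3.49 CPM, and the 61.9 CPM of the adult nuclei rested on 2 UMIs in 23 nuclei. The 3 high libraries did not overlap any other whole-cell library. The share of astroglia-like cells with a PAX3 UMI was 57.6% (54.6 to 60.6) in E60 library 2, 27.9% (24.9 to 31.1) in the E50 library and 8.72% (7.56 to 9.99) in E60 library 1. It was 1.89% (0.762 to 3.85) in E60 library 3 and 1.42% (0.522 to 3.06) in E70 library 3. None of the 30 astroglia-like cells of E70 library 1 had a PAX3 UMI, and a count of 0 there allows up to 5.72 CPM. Thinned to 2000 UMIs per cell, the 3 high shares were 29.99%, 10.4% and 4.66%, so the order of these libraries held at equal depth. Microglia-like cells, which should lack PAX3, were used as background after cluster 15, which also carried astroglial markers, had been left out. They carried PAX3 in 0.926% of 108 cells in the E50 library, 0.242% of 825 cells in E60 library 1 and none of 195 cells in E60 library 2 (up to 3.00 CPM), at median depths of 10948, 4351 and 4766 UMIs against 9330, 3589 and 5155 UMIs in the astroglia-like cells. With cluster 15 included, PAX3 was found in 2 of 125 cells, 22 of 1204 cells (1.83%) and 127 of 503 cells (25.2%) (1.33, 4.01 and 66.8 CPM). Erythroid-like cells held PAX3 in 1.89% of 159 cells, 1.51% of 729 cells and 16.6% (13.4 to 20.3) of 469 cells. PAX3 of E60 library 2 was thus also counted in cells of other classes, at shares below the 57.6% of its astroglia-like cells.

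Progenitor-like cells carried PAX3 in the same libraries. It was at 101 CPM (89.9 to 113) in 385 cells of the E50 library, 56.0 CPM (41.7 to 73.6) in 262 cells of E60 library 1 and 213 CPM (177 to 256) in 111 cells of E60 library 2. In the 80 progenitor-like cells of E60 library 3 and the 55 of E70 library 3 no PAX3 UMI was counted, which allows up to 5.11 and 9.16 CPM. The 3 positive libraries thus lay above what a count of 0 allows in the other 2 libraries. The progenitor-like class depended on batch correction. Without it, 2 clusters with PAX3 and DBX1 among their leading genes were named astroglia-like. Of their cells, 889 of 920 came from E60 library 2 and 561 of 565 from the E50 library. The only progenitor-like cluster then held 165 cells, 102 of them from E70 library 2. Astroglial markers summed to 10941 CPM in progenitor-like cells of E60 library 2, against 1521 CPM in E60 library 3. Neuron-like cells gave lower PAX3 levels, 9.50 CPM in the E50 library, 1.61 CPM in E60 library 1 and 32.7 CPM in E60 library 2. The last value fell to 3.57 CPM when cells were clustered without batch correction, so it depended on which of that library's cells were counted as neuron-like. Oligodendroglia-like cells of E60 library 2 held PAX3 at 102 CPM (110 cells), whereas those of the E50 library were at 8.65 CPM (123 cells) and those of E60 library 1 at 6.64 CPM (466 cells).

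DBX1, which marks progenitors at intermediate positions of the neural tube, had a narrower range. Progenitor-like cells held 117 CPM (105 to 129) in the E50 library, 5.49 CPM (1.78 to 12.8) in E60 library 1 and 204 CPM (168 to 246) in E60 library 2, in 21.8%, 1.91% and 41.4% of cells. None of these 3 intervals overlapped another, but each came from 1 library. The libraries also differed in the clusters that made up this class. Cluster 27 gave 184 of the 385 cells in the E50 library and 63 of the 262 in E60 library 1, where cluster 30 gave 199. Within cluster 27 the E50 library was the highest, as described below. The 360 DBX1 UMIs of the E50 library lay in 84 of 385 cells, and the intervals leave out such spread between cells. Astroglia-like cells showed the same order of libraries, with 14.3 CPM, 1.38 CPM and 68.4 CPM, and the E50 value was 45.2 CPM under clustering without batch correction. No DBX1 UMI was found in astroglia-like or progenitor-like cells of E60 library 3, which allows up to 0.544 and 5.11 CPM, and 1 was found in the astroglia-like cells of E70 library 3. Neuron-like cells were at 1.70, 0.27 and 8.52 CPM in the E50 library and E60 libraries 1 and 2. DBX1 was therefore concentrated in progenitor-like and astroglia-like cells, which held 36.8% and 41.1% of its UMIs, and it set E60 library 2 apart from E60 library 1, although both carried PAX3.

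PAX7, the paralogue of PAX3, was spread over more libraries than the other members. In astroglia-like cells it was at 23.3 CPM in the E50 library (37.4 CPM under clustering without batch correction), 7.37 CPM in E60 library 1, 66.8 CPM in E60 library 2 and 4.35 CPM in E60 library 3. In E70 libraries 1, 2 and 3 it was at 19.1, 23.6 and 5.29 CPM, so here the stages overlapped. Progenitor-like cells gave 57.4 CPM in the E50 library, 3.29 CPM in E60 library 1 and 54.3 CPM in E60 library 2, against 6.81 CPM in E60 library 3 and 3.05 CPM in E70 library 3. In neuron-like cells the levels were 21.2 CPM in the E50 library, 37.2 CPM in E70 library 1 and 30.2 CPM in E70 library 2, with 5.17 to 5.19 CPM in E60 library 3 and E70 library 3. E60 library 1 was at 5.08 CPM and E60 library 2 at 25.6 CPM (12.5 CPM under clustering without batch correction). The members of neuron-like nuclei summed to 21.8 CPM at E70 and 39.95 CPM in the adult, but to 7.64 and 2.66 CPM without PAX7. PAX7 thus made up most of the signal in neuron-like nuclei of both ages. This was not particular to neurons: in 1742 adult oligodendroglia-like nuclei the members summed to 29.1 CPM, and to 6.40 CPM without PAX7. In the 23 adult astroglia-like nuclei these sums were 92.8 and 61.9 CPM, so PAX7 was the smaller part there. Microglia-like cells without cluster 15 held PAX7 in 2.78% of cells in the E50 library and 0.513% in E60 library 2, below the 14.9% (12.6 to 17.5) and 28.5% (25.8 to 31.3) of astroglia-like cells. With cluster 15 it was found in 6 of 125 cells and 67 of 503 cells (13.3%), and erythroid-like cells were at 3.14% and 7.25%. In E70 libraries 1 and 2 the microglia-like shares without cluster 15 were 23.1% of 13 cells and 36.4% of 11 cells, at median depths of 10611 and 8876 UMIs, and the neuron-like shares there, 27.1% (22.3 to 32.3) and 23.9% (19.9 to 28.2) at 9130 and 8968 UMIs, lay within the microglial intervals. No PAX7 UMI was found in the 36 and 31 erythroid-like cells of those libraries, which allows up to 9.81 and 11.2 CPM. The neuron-like and microglia-like PAX7 levels there could not be told apart at these cell numbers, and the neuron-like levels were above what the erythroid-like count of 0 allows. Adult microglia-like cells, at 8.96 CPM, were above the 6.98 CPM of adult astroglia-like cells, so the latter was not read as expression. In E60 library 3 and E70 library 3 the microglial PAX7 level was 1.62 CPM (0.196 to 5.85) and 1.06 CPM (0.0268 to 5.89), with intervals that overlapped those of the astroglia-like cells. The values of 19.1 CPM in E70 library 1 and 13.8 CPM in the E70 nuclei fell to 0 when cells were thinned to 2000 UMIs.

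**Figure D2:**
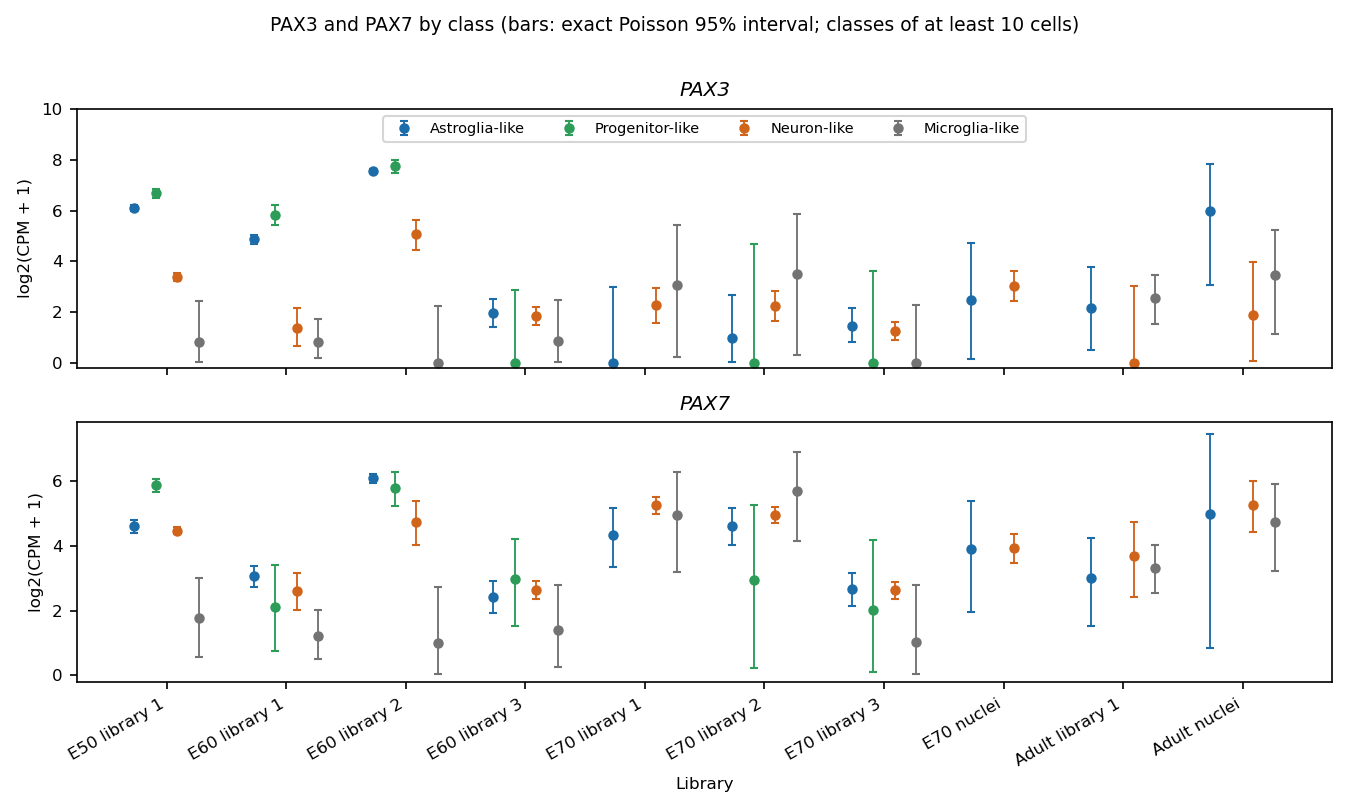
Level of PAX3 (upper panel) and PAX7 (lower panel) as log2(CPM + 1) in each library, with points for astroglia-like, progenitor-like, neuron-like and microglia-like cells of at least 10 cells and bars for the exact Poisson 95% interval. PAX3 in astroglia-like and progenitor-like cells stands above microglia-like cells in the E50 library and E60 libraries 1 and 2, whereas the PAX7 intervals of astroglia-like, neuron-like and microglia-like cells overlap in E70 libraries 1 and 2. Microglia-like cells are shown without cluster 15.

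EN2, an engrailed factor of the posterior midbrain and the cerebellum, was found in glia and neurons alike. Astroglia-like cells held 23.2 CPM (20.04 to 26.6) in the E50 library, 49.96 CPM (45.4 to 54.9) in E60 library 1 and 31.7 CPM (27.3 to 36.6) in E60 library 2. E60 library 3 was at 1.09 CPM, E70 libraries 1 and 2 at 0 and E70 library 3 at 0.22 CPM. E60 library 1, the lowest of the 3 for PAX3 and DBX1, was thus the highest for EN2. Progenitor-like cells were at 50.6, 50.5 and 28.9 CPM in the E50 library and E60 libraries 1 and 2, and at 0 in E60 library 3 and E70 library 3. Neuron-like cells gave 24.4 CPM (22.7 to 26.2), 84.0 CPM (74.97 to 93.8) and 31.2 CPM (19.6 to 47.3), in 16.2%, 29.0% and 18.8% of cells, and between 0.19 and 0.69 CPM in E60 library 3 and the E70 whole-cell libraries. For E60 library 2, thinning lowered EN2 to 13.5 CPM in progenitor-like cells and to 17.9 CPM in neuron-like cells. Microglia-like cells without cluster 15 held EN2 at 1.59, 1.58 and 2.00 CPM in the 3 high libraries, and at 6.66, 17.2 and 10.6 CPM with it. No EN2 UMI was found in the nuclei of either age, which allows up to 0.971 CPM at E70 and 1.28 CPM in the adult. EN1, its paralogue, was nearly absent where EN2 was abundant, with 13 UMIs in 13 cells, all of them in the E50 library and E60 library 1.

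The Iroquois genes, which help to divide the neural tube behind the anterior forebrain, differed in the order of their libraries. In astroglia-like cells IRX2 was at 4.70 CPM (3.36 to 6.40) in the E50 library, 16.2 CPM (13.7 to 19.1) in E60 library 1 and 21.6 CPM (18.0 to 25.7) in E60 library 2. E60 library 3 was at 0.36 CPM and the E70 libraries at 0. IRX2 was thus lower in E50 astroglia-like cells than in both E60 libraries, whose intervals overlapped. IRX3 was instead higher in the E50 library than in E60 library 1, with 7.52 CPM (5.79 to 9.61) in the E50 library, 2.99 CPM (1.96 to 4.39) in E60 library 1 and 5.66 CPM (3.89 to 7.94) in E60 library 2. In progenitor-like cells IRX3 was at 18.1 CPM (13.7 to 23.6) in the E50 library and at 1.10 and 1.81 CPM, 1 UMI each, in E60 libraries 1 and 2. In neuron-like cells it was at 9.69, 5.62 and 1.42 CPM, and neurons held 49.3% of all IRX3 UMIs. IRX5, the neighbour of IRX3 in the genome, was counted in 31 cells with 1 UMI each.

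TFAP2B and BARHL2, factors of postmitotic neurons, were the members with the largest neuronal shares, 72.5% and 72.8% of their UMIs. TFAP2B, an AP-2 factor, was at 46.3 CPM (43.9 to 48.8) in the neuron-like cells of the E50 library, 28.9 CPM (23.7 to 34.9) in E60 library 1 and 88.1 CPM (67.5 to 113) in E60 library 2. E60 library 3 was at 0.83 CPM, and E70 libraries 1, 2 and 3 were at 0.32, 0 and 0.25 CPM. The shares of neuron-like cells with TFAP2B were 6.67%, 7.21% and 26.8% in the 3 high libraries and 0.118% in E60 library 3. TFAP2B was the member counted most often in a single cell, up to 30 UMIs. Its progenitor-like level in the E50 library, 17.8 CPM, was 9.72 CPM once cells called doublets had been left out. BARHL2, a homeobox factor of dorsal brain and retinal neurons, was sparser, with 4.16 CPM (3.47 to 4.95) in E50 neuron-like cells, 0.27 CPM in E60 library 1, 5.68 CPM (1.55 to 14.5) in E60 library 2 and 1.52 CPM (0.955 to 2.31) in E60 library 3.

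Clusters resolved where the neuronal members lay. Cluster 11, led by LHX9, TFAP2D and POU4F2, held TFAP2B at 145 CPM in 839 cells of the E50 library, 54.2 CPM in 71 cells of E60 library 1 and 169 CPM in 35 cells of E60 library 2, and at 0 in 20 cells of E70 library 3. EN2 was at 65.0, 126 and 36.9 CPM and OTX2, a factor of the forebrain and midbrain, at 24.9, 28.9 and 100 CPM in the same libraries and cells. Cluster 9, led by PENK and TAC1, also held TFAP2B, at 61.2, 29.8 and 58.3 CPM, and EN2, at 32.4, 86.5 and 29.2 CPM. Both clusters thus carried TFAP2B together with EN2 in each of the 3 libraries. Cluster 35, led by CALB1 and CA8 as in Purkinje neurons of the cerebellum, held EN2 at 57.9 CPM in 135 cells of the E50 library and 26.5 CPM in 93 cells of E60 library 1, with no UMI of PAX3 or TFAP2B. In the E50 neuron-like cells as a whole, EN2 was found in 517 and TFAP2B in 213 of 3194 cells, and both in 89, against 34.5 expected if they were independent. Deeper cells show more genes of any kind, so such a count describes the cells and is no test.

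BARHL2 was counted in cluster 11, at 12.9 CPM in the E50 library, and also in another neuron-like cluster. Cluster 40, led by NDNF, CALB2 and RELN, held it at 21.6 CPM over 70 cells of a median 26968 UMIs, with EN2, IRX2, IRX3, TFAP2B and DBX1 all at 0. These cells had a median of 3.42 times the median UMIs of their libraries, and whether doublets had a part in this cluster was not tested. In the 32 cluster 40 cells of E60 library 3, BARHL2 was at 19.1 CPM beside EMX2, a cortical gene, at 69.3 CPM. BARHL2 was therefore found in a library rich in telencephalic transcripts, in which EN2, IRX2, IRX3, TFAP2B and DBX1 were each below 1 CPM in all cells. An unnamed cluster led by CBLN1, NEUROD1 and ZIC4 (cluster 32) held EN2 at 64.3 CPM in the E50 library and 63.7 CPM in E60 library 1, and BARHL2 at 16.1 and 1.9 CPM. Another unnamed cluster, led by TTR and RCVRN (cluster 29), held TFAP2B at 71.4 CPM in the E50 library, 3.6 CPM in E70 library 1 and 56.7 CPM in E70 library 3, with OTX2 at 51.6, 191 and 131 CPM. It held 45 of the 51 TFAP2B UMIs of E70 library 3, in 8 of 110 cells, whereas the neuron-like cells there were at 0.25 CPM. Cluster 12, led by cilia genes and made up of E60 library 1 in 950 of 971 cells, held EN2 at 42.3 CPM and IRX2 at 36.3 CPM.

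**Figure D3:**
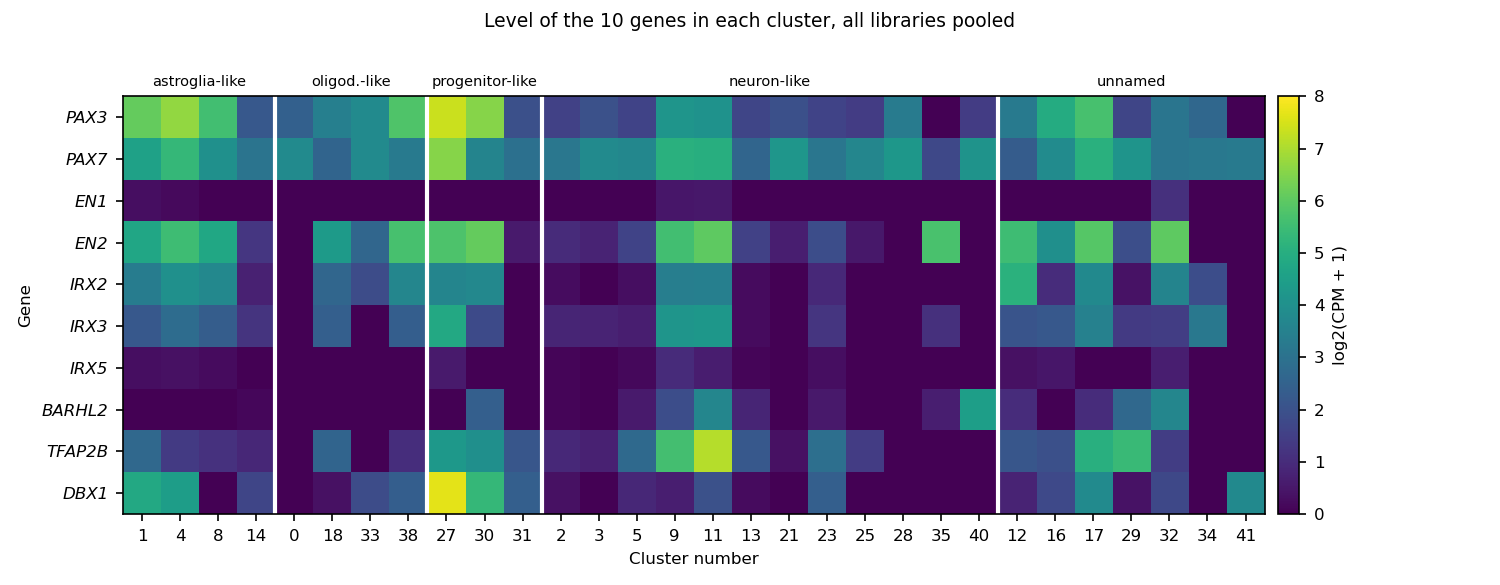
Heat map of log2(CPM + 1) of the 10 genes (rows) in each cluster (columns, by number) with all libraries pooled, grouped into astroglia-like, oligodendroglia-like, progenitor-like, neuron-like and unnamed clusters. DBX1 and PAX3 stand out in progenitor-like cluster 27, TFAP2B in neuron-like cluster 11 and BARHL2 in neuron-like cluster 40, and progenitor-like cluster 31 is dark for nearly all members.

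Progenitor-like cells fell into clusters with and without the members. Cluster 27 held DBX1 at 251 CPM in 184 cells of the E50 library, 25.1 CPM in 63 cells of E60 library 1 and 146 CPM in 85 cells of E60 library 2. PAX3 was at 168, 35.1 and 213 CPM in these cells, PAX7 at 118, 5.0 and 62.2 CPM, and IRX3 at 39.9, 0 and 0 CPM. Cluster 30 held PAX3 at 99.8, 61.8 and 215 CPM and EN2 at 81.6, 57.6 and 44.6 CPM, whereas DBX1 was at 15.6 CPM, 0 and 386 CPM. Its name was weak, since it rested on 3 detected markers and pan-neuronal markers were its second list. It was led by SCT and NPTX1, and 67.4% of its cells held TOP2A, a gene of dividing cells. Cluster 31, led by EOMES, the gene of cortical intermediate progenitors, held all members at 7 CPM or lower over its 279 cells. Nearly all progenitor-like cells of E60 library 3 (80 cells) and E70 library 3 (54 of 55 cells) were in cluster 31, together with 126 of the E50 library. The absence of PAX3 and DBX1 from those libraries' progenitors thus went with progenitor-like cells of another cluster. The E50 library held many cells of clusters 27, 30 and 31, and each E70 library held 1 or 2 cells of clusters 27 and 30 beside 7, 12 and 54 of cluster 31.

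The E50 library showed the same split in its glia. Its 118 cells in astroglia-like cluster 4 held PAX3 at 152 CPM, PAX7 at 35.2 CPM, EN2 at 63.1 CPM and EMX2 at 0 CPM. Its 206 cells in astroglia-like cluster 14 held PAX3 at 8.6 CPM, EN2 at 2.88 CPM and EMX2 at 130 CPM, and the cluster 14 cells of E60 library 3 and E70 library 3 held PAX3 at 0.87 and 0.40 CPM with EMX2 at 63.7 and 54.6 CPM. EMX2 was named after its values had been seen. Among 824 E50 astroglia-like cells, PAX3 was found in 230 and EMX2 in 293, and both in 8, against 81.8 expected if they were independent. EN2 and EMX2 met in 10 cells against 47.3. By contrast PAX3 and PAX7 met in 72 cells against 34.3, PAX3 and EN2 in 71 against 37.1, and DBX1 and EN2 in 20 against 4.84. Not every pair did so, since EN2 and TFAP2B met in 3 cells against 3.23. In astroglia-like cells of E60 library 2 the first 3 pairs lay near independence, with 193 cells against 173, 104 against 93.3 and 24 against 26.05. Progenitor-like cells of the E50 library gave PAX3 with DBX1 in 54 cells against 34.0 and PAX3 with EMX2 in 3 against 28.0. Neuron-like cells of that library did not show this for PAX3 and EN2: PAX3 met EMX2 in 11 cells against 11.3, EN2 in 47 against 49.9, PAX7 in 27 against 23.8 and BARHL2 in 14 against 9.06, whereas IRX2 did so in 1 against 11.3, IRX3 in 8 against 17.3 and TFAP2B in 13 against 20.5. In the E50 library PAX3 was thus seldom found with EMX2 in astroglia-like and progenitor-like cells, and EN2 seldom in astroglia-like cells. Neuron-like cells did not show this for either gene.

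Counting any member other than PAX7 at once gave the same picture per library. The share of astroglia-like cells with a UMI of at least 1 of the 9 members other than PAX7 was 42.1% in the E50 library, 29.7% in E60 library 1 and 71.6% in E60 library 2, against 4.31% in E60 library 3 and 2.13% in E70 library 3. It was 3.33% of 30 cells in E70 library 1 and 1.85% of 54 cells in E70 library 2. With PAX7 counted, the share was 36.7% and 27.8% in these 2 libraries, against 31.4% in E60 library 1. The split between libraries therefore did not hold once PAX7 was included. At least 2 members were seen in 21.4%, 5.22% and 40.4% of cells in the first 3 libraries, in 0.270% in E60 library 3 and in none of 423 cells in E70 library 3. No cell held more than 6 members. E60 library 1, with the shallowest cells of the 3, had few cells with several members.

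The members' summed level ran against the telencephalon list across libraries, except at E50. In astroglia-like cells the 9 members without PAX7 summed to 99.6 and 322 CPM in E60 libraries 1 and 2, where the telencephalon list was at 21.8 and 13.2 CPM, and to 4.9 CPM or lower in E60 library 3, the E70 libraries and the E70 nuclei, where that list was between 143 and 510 CPM. The E50 library was high for both, with 125 CPM of members and 365 CPM of the list. Neuron-like cells gave 132 and 168 CPM of members in E60 libraries 1 and 2, 101 CPM in the E50 library, and between 2.99 and 7.64 CPM in the other fetal libraries. The hindbrain and cerebellum list of 13 genes summed to 8.82 CPM or lower in astroglia-like cells of each fetal library. In progenitor-like cells it summed to 18.1, 62.5 and 0 CPM in the E50 library and E60 libraries 1 and 2, to 10.2 CPM in E60 library 3 and to 3.05 CPM in E70 library 3, and CBLN1, a gene of cerebellar granule cells, gave 61.4 CPM of the value in E60 library 1. EGR2, another gene of this list, gave the whole progenitor-like value in E60 library 3 (6 UMIs) and in E70 library 3 (1 UMI). It also gave most of the astroglia-like sum there, at 7.62 CPM and 8.38 CPM. In neuron-like cells the list summed to 9.47, 19.8 and 9.94 CPM in the E50 library and E60 libraries 1 and 2, against 1.09 to 3.39 CPM in the other fetal libraries.

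**Figure D4:**
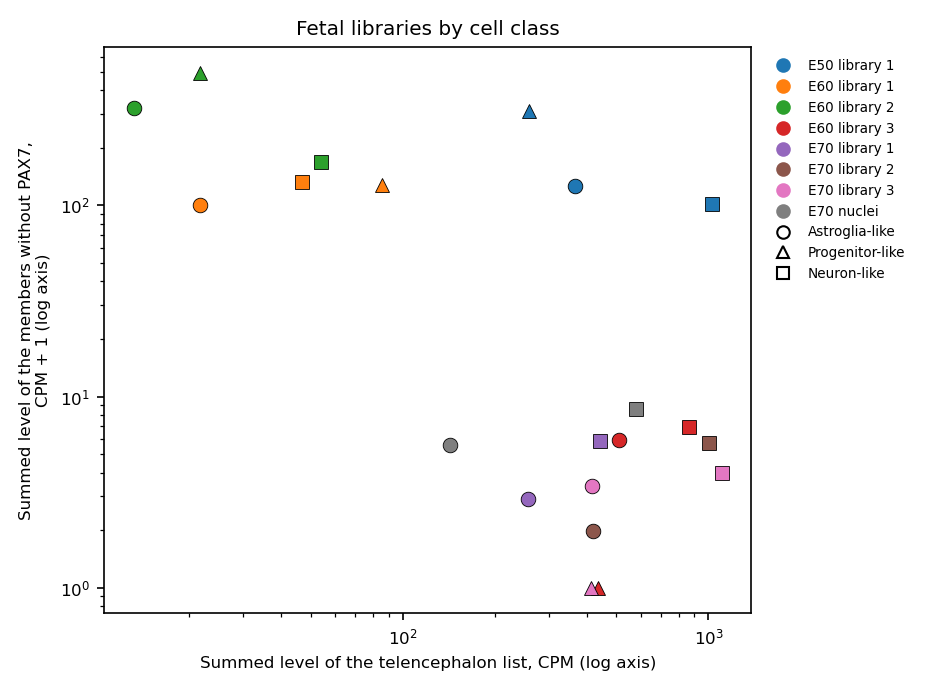
Summed level of the members without PAX7 (vertical axis, CPM + 1, log scale) against the summed level of the telencephalon list (horizontal axis, CPM, log scale), 1 point for each fetal library (colour) and cell class (shape). E60 libraries 1 and 2 lie at the upper left, the E50 library at the upper right and the other fetal libraries at the lower right.

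In astroglia-like and neuron-like cells the wider midbrain list was higher by its median gene, but not by its sum, in the libraries with members. Of a list of 37 other genes of the midbrain and isthmus, 36 were in the matrices. In astroglia-like cells 4 to 6 of them reached 10 CPM in the 3 libraries with members, and 4, 10, 9 and 5 did so in E60 library 3 and E70 libraries 1, 2 and 3. The summed list was at 315, 340 and 301 CPM in the E50 library and E60 libraries 1 and 2, 288 CPM in E60 library 3, and 837, 763 and 340 CPM in E70 libraries 1, 2 and 3. The median gene of the list was at 0.94, 0.58 and 0.69 CPM in the 3 libraries with members, against 0.18 CPM in E60 library 3 and 0 in the E70 libraries, and 30, 25 and 27 genes had a UMI against 20, 15, 12 and 17. E70 libraries 1 and 2 held only 30 and 54 astroglia-like cells. There 1 UMI was 1.91 CPM in library 1 and 2 UMIs were 1.97 CPM in library 2. Medians below 1 UMI could not be seen in these 2 libraries, and fewer genes can have a UMI in so few cells. In neuron-like cells the median was 2.65, 2.81 and 1.42 CPM against 0.42, 0.16, 0.12 and 0.22 CPM. In progenitor-like cells it was 2.59, 0 and 1.81 CPM, against 0 in E60 library 3 and E70 library 3, so E60 library 1 did not stand apart. The largest contributors to the sum are also used elsewhere: TCF7L2, a Wnt effector, was between 104 and 179 CPM in the astroglia-like cells of all fetal whole-cell libraries, and PAX2, an isthmus gene, was at 355 and 335 CPM in E70 libraries 1 and 2 against 13.0 to 78.5 CPM in the others. In neuron-like cells PAX2 was at 360 and 347 CPM in those 2 libraries, close to its astroglia-like levels there. OTX2 was nearer to the members, at 6.8, 10.9 and 40.6 CPM in the astroglia-like cells of the E50 library and E60 libraries 1 and 2 and at 1.9 CPM or lower in the other whole-cell fetal libraries. In the test of E70 against E60 described next, edgeR called 0 of the 22 midbrain and isthmus genes, 0 of the 13 telencephalon genes and 0 of the 2 hindbrain genes that passed the filter in all cells, with median log2 fold changes of −0.47, 1.28 and −1.75 against −0.06 over all genes tested.

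The comparison of E60 with E70 asked whether the members changed with stage in whole cells. No member passed an adjusted p of 0.05 by edgeR's quasi-likelihood test on UMI sums per library, and neither did any other gene: 0% of 16743 genes were called in all cells. At an unadjusted p under 0.05, edgeR passed 4916 genes (29.4%), and DESeq2 called 2833 at its adjusted threshold. PAX3 in all cells was at 11.2, 77.8 and 2.55 CPM in E60 libraries 1, 2 and 3 and at 2.38, 2.88 and 1.15 CPM in E70 libraries 1, 2 and 3. The stages overlapped, since E60 library 3 lay below E70 library 2, and the log2 fold change was −4.23 ± 1.26 (SE, n = 3 and 3 libraries, edgeR adjusted p = 0.122). EN2 was at 37.4, 14.04 and 0.73 CPM at E60 and at 0.63, 0.29 and 0.29 CPM at E70. Its stages did not overlap, but the lowest E60 library lay close to the E70 libraries, and the log2 fold change was −5.79 ± 1.38 (SE, edgeR adjusted p = 0.122). PAX7 was at 3.74, 29.96 and 4.48 CPM at E60 and at 30.2, 27.9 and 5.06 CPM at E70, with a log2 fold change of 0.39 ± 0.97 (SE, edgeR adjusted p = 0.789). IRX3 (−2.77, edgeR adjusted p = 0.130) and TFAP2B (−2.51, edgeR adjusted p = 0.193) also missed the threshold. EN1, IRX2, IRX5, BARHL2 and DBX1 did not pass the filter on low counts, so 5 of the 10 members were tested. In astroglia-like cells and in neuron-like cells only PAX3 and PAX7 passed it. Within classes edgeR again called 0% of genes, whereas 18.5% of 14064 genes in astroglia-like cells, 2.19% of 9581 in progenitor-like cells and 24.0% of 14029 in neuron-like cells were at an unadjusted p under 0.05. In progenitor-like cells, where E70 was 1 library, PAX3, PAX7, EN2, IRX2 and DBX1 passed the filter, each with an edgeR adjusted p of 0.928.

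For EN2 and PAX3 the E60 libraries spread far more widely than the E70 libraries, where both genes were near 0. The SD of log2(CPM + 1) of EN2 was 2.29 at E60 and 0.20 at E70, and that of PAX3 was 2.25 and 0.45. Levels near 0 leave little room for spread on this scale. PAX7, well detected at both stages, had SDs of 1.51 and 1.33 in all cells and 1.22 and 1.44 in neuron-like cells. EN2 and IRX2 were the 2 members whose E60 libraries all lay above the E70 libraries in all cells, against 10.4% of all 19069 genes with a UMI in these libraries. In astroglia-like cells 4 members were separated in this way (PAX3, EN2, IRX2 and IRX3; 7.19% of 18215 genes), and in neuron-like cells EN2 and TFAP2B were (5.71% of 18638 genes). In progenitor-like cells PAX7 was the only member above the single E70 library in each E60 library, against 20% of 16383 genes. The astroglia-like log2 fold change of PAX3 was −5.88 ± 1.61 (SE, edgeR adjusted p = 0.211). Without E60 library 3, edgeR called PAX3, EN2, IRX2, IRX3, TFAP2B and DBX1 lower at E70 in all cells, with log2 fold changes from −3.01 for TFAP2B to −9.20 for DBX1 and adjusted p from 0.0142 to 0.0428, in a fit that called 5902 genes. The same omission gave calls for PAX3, EN2, IRX2 and IRX3 in astroglia-like cells (edgeR adjusted p from 0.0135 to 0.0429), among 1569 genes called. In neuron-like cells it gave calls for EN2 and TFAP2B (edgeR adjusted p = 0.00502 for each), among 4746 genes called. With all 6 libraries, several of these genes had failed the filter on low counts and were not tested. They were IRX2 and DBX1 in all cells, EN2, IRX2 and IRX3 in astroglia-like cells, and EN2 and TFAP2B in neuron-like cells. They passed it here through the E60 libraries in which they were high, so their calls follow from that selection. The fits of all 6 libraries tested 16743, 14064 and 14029 genes in all, astroglia-like and neuron-like cells. Calls without E60 library 3 were therefore common among all genes and not particular to the members. With all 6 libraries DESeq2 called PAX3 (adjusted p = 0.00136), EN2 (adjusted p = 2.57e-05) and IRX3 (adjusted p = 0.0391) lower at E70 in all cells. These were among 2833 genes that DESeq2 called of 16743 that passed the filter on low counts. DESeq2 also called PAX3 in astroglia-like cells (adjusted p = 0.0117). With E60 library 3 alone against the 3 E70 libraries, the log2 fold change was −0.31 for PAX3 (edgeR adjusted p = 0.955), −0.96 for EN2 (edgeR adjusted p = 0.948) and 0.88 for TFAP2B (edgeR adjusted p = 0.948). The size of the stage difference in these members thus rested on E60 libraries 1 and 2, the libraries with few telencephalic transcripts. Fewer cells of a kind and less RNA per cell cannot be told apart in sums over all cells.

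E60 library 1 shared a sequencing pool with E70 library 1, and E60 library 3 with E70 library 3, as the pool numbers of the study's library list are read here. Within the first pair EN2 was at 37.4 against 0.63 CPM, PAX3 at 11.2 against 2.38 CPM and PAX7 at 3.74 against 30.2 CPM. Within the second pair EN2 was at 0.73 against 0.29 CPM, PAX3 at 2.55 against 1.15 CPM and PAX7 at 4.48 against 5.06 CPM. PAX3 and EN2 were lower at E70 in both pairs, but by 1.85 and 4.55 on the log2(CPM + 1) scale in the first pair and by 0.73 and 0.43 in the second. The part of the sequencing pool in these values was not tested further.

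**Figure D5:**
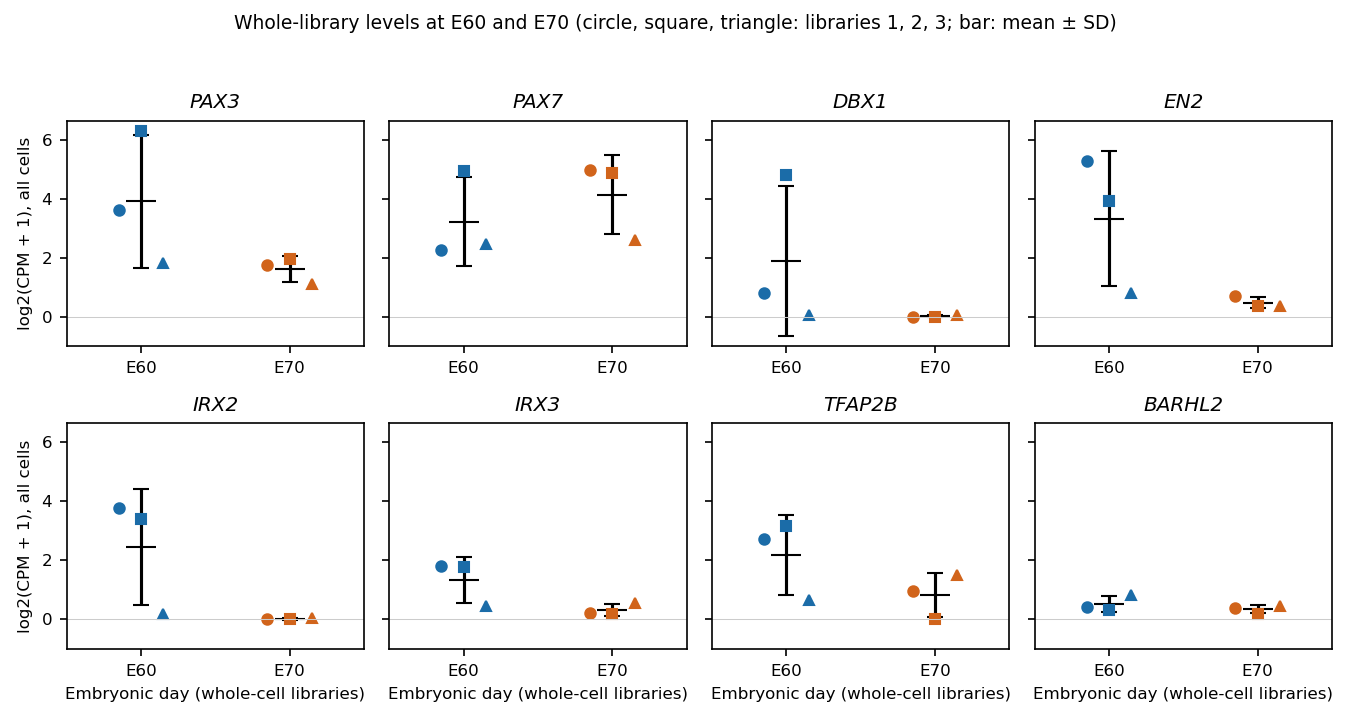
Level in all cells as log2(CPM + 1) for 8 of the 10 genes (EN1 and IRX5 are left out) in the 3 E60 and 3 E70 whole-cell libraries, with circle, square and triangle for libraries 1, 2 and 3 and the bar for the mean ± SD. For PAX3, EN2, IRX2 and IRX3 the triangle of E60 library 3 sits beside the E70 libraries, away from the other two E60 libraries.

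Genes with the most similar pattern were found over 21 sums of UMIs (fetal libraries by astroglia-like, progenitor-like and neuron-like class) among 12661 genes. These points share libraries and depth, so Pearson's r is given as a description. Among the genes nearest to PAX3 were DBX1 (r = 0.90) and EFNA5 (0.89), an axon guidance ligand, and among those nearest to DBX1 were PAX3 and ZIC4 (0.87), a zinc finger factor of the dorsal neural tube. TFAP2B was nearest to BAIAP3 (0.94), SHOX2 (0.93) and FAM69B (0.90), and IRX2 to CYP26B1 (0.91), an enzyme that breaks down retinoic acid, TFPI2 (0.89) and ARMT1 (0.88). EN2 was nearest to ENSSSCG00000027491 (0.91), CMPK1 (0.90) and PAIP1 (0.90), and IRX3 to ENSSSCG00000035561 (0.90), RDH14 (0.89) and HYAL2 (0.89). PAX7 and BARHL2 had no close partner, with COL3A1 (0.76), MPLKIP (0.75) and HS3ST3A1 (0.73) nearest to PAX7, and NPTX1 (0.75), CBLN1 (0.73) and GAP43 (0.73) nearest to BARHL2.

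Some clusters of other classes carried the members as well. Cluster 15, scored as microglia-like with astroglial markers as its second list, held PAX3 at 37.1 CPM in 766 cells. Endothelial-like cluster 19 held PAX3 at 30.1 CPM in 560 cells and erythroid-like cluster 26 held it at 63.3 CPM in 357 cells. Unnamed cluster 17, led by PCP4, TAC1 and CALB1 although scored as astroglia, was kept out of that class after its genes had been seen. It made up 5.24% of E60 library 1 and 4.37% of E60 library 2, and it held PAX3 at 42.4, 18.1 and 152 CPM and EN2 at 34.3, 79.1 and 25.6 CPM in the E50 library and E60 libraries 1 and 2. In each of these libraries the members thus reached cells of several classes, and whether mixed droplets had a part in this was not tested.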

How the data were processed

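The authors prepared whole cells by papain dissociation and nuclei by sorting on a DNA dye, made 10x Genomics 3′ version 2 libraries, and mapped them with Cell Ranger (2.20 in the submitters' processing notes) to Sscrofa11.1 with intron reads counted. They deposited UMI counts per gene and cell for each library, after Cell Ranger's default cell calling, and all 28229 barcodes were used. Counts carry library totals of 2336865 to 55755512 UMIs, and shares are limited by the number of cells.

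The 10 genes and all gene lists were chosen with earlier results of these data known. Named genes were the 10 members, the 3 genes most alike each member with at least 50 fetal UMIs, OTX2 and the 3 most counted genes of each regional list, some of which are not reported here; EMX2 and cluster-leading genes were named after their values had been seen. Cells were scaled to 10000 UMIs and clustered (3000 variable genes without 154 members and markers, 50 components, mutual nearest neighbours between libraries, Louvain resolution 1.6; scanpy 1.11.5, scikit-learn 1.9.0, igraph 0.11.9) into 42 clusters, named from at least 3 detected markers. Scrublet's automatic threshold marked 183 cells and none in E60 libraries 1 and 2, so the 1077 cells with the highest scores per library were left out as an alternative and kept otherwise. UMI sums per library and class (at least 20 cells) were tested with edgeR 4.0.16 (TMM, quasi-likelihood, Benjamini-Hochberg over all genes) in R 4.3.3, after a test on simulated data. Alternatives were DESeq2 1.42.0, no filter, leaving out libraries, library number or sequencing pool as a block, other clusters, thinned cells and no doublets. Promoters were read from RefSeq on Sscrofa11.1 with pysam 0.24.0.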

Additional observations from a re-analysis of the deposited data

How the results depend on the processing

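Genes called between E60 and E70 numbered 0 by edgeR in all 4 comparisons, and DESeq2 called 2833 in all cells, 864 in astroglia-like, 1 in progenitor-like and 1478 in neuron-like cells. Leaving out 1 library at a time gave 0 to 5902 calls in all cells, 0 to 1569 in astroglia-like, 0 to 4 in progenitor-like and 0 to 4746 in neuron-like cells. The counts came from leaving out E60 library 3 (5902, 1569, 4 and 4746), E70 library 3 (1570, 1176 and 773 in all, astroglia-like and neuron-like cells) or E60 library 1 (2 in progenitor-like cells), and the cause was not tested. The sequencing pool as a block gave 1 call in astroglia-like cells. The library number as a replicate block gave 0 calls. Deviations from the stage means correlated at −0.171, 0.034 and −0.123 between same-numbered libraries. So few libraries cannot settle whether the numbers pair them, and numbers 1 and 3 also shared sequencing pools as read here. Among the members, the log2 fold change of PAX7 changed sign in all cells without E60 library 1 (−0.071) and without E60 library 3 (−0.065; range over libraries left out −0.071 to 2.25), and in astroglia-like cells without E60 library 2 (1.25; range −1.56 to 1.25), with the pool block (0.75) and with E60 library 3 alone (1.80). That of PAX3 in neuron-like cells changed sign without E60 library 2 (0.29; range −2.69 to 0.29), without batch correction (0.21) and with E60 library 3 alone (0.075), and that of TFAP2B in all cells with E60 library 3 alone (0.88). None of these reversed values was called. Of 210 member levels, 42 reached 10 CPM, against 30 of 160 without batch correction, 42 of 210 after thinning and 41 of 210 without doublets. The fits of progenitor-like cells without E70 library 3, with E60 library 3 alone, with either block and without batch correction could not be made, and their E70 arm was 1 library, assumed to vary like the others. The comparison with E60 library 3 alone, the pool block and the doublet fit in all cells were chosen after seeing the data.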
